A study of Mus musculus with 16 samples.

Results

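Heat shock proteins are the molecular chaperones that help other proteins fold, and cochaperones are the proteins that load, release or place them. The 74 genes described here are those named by probe sets with a single gene, in the array annotation used here, whose symbol starts with Hsp (apart from Hspg2, a proteoglycan gene), with Dnaj, or with Bag and a digit, of 17097 genes in all. They comprise 13 genes of the HSP70 family, 2 of the HSP90 family and the mitochondrial chaperonin gene Hspe1. A further 7 are grouped by symbol alone as small heat shock proteins. The rest are 2 factors that bind heat shock proteins (Hspbp1 and Hspbap1), 16 DNAJA and DNAJB genes, 27 DNAJC genes and 6 BAG genes. Transcripts were profiled in splenic CD4 T cells of NOD/LtJ mice, a strain prone to autoimmune diabetes, at 6 weeks of age. Regulatory T cells (Tregs), which hold immune responses in check and depend on the factor Foxp3, and conventional T cells (Tconv) came from KI mice with the knock-in allele Foxp3tm2Ayr, described in the labels as Foxp3gfp, or from WT mice with the transgene Tg(Foxp3-EGFP/cre)1aJbs. Both strains therefore carried a Foxp3 reporter, in WT as a transgene and in KI at the Foxp3 locus itself. There were 4 arrays each of KI Tregs, WT Tregs, KI Tconv and WT Tconv.

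HSP70 proteins bind exposed stretches of unfolded proteins in a cycle driven by ATP. J proteins, which the Dnaj genes encode, deliver the substrate and start ATP hydrolysis, and nucleotide exchange factors (BAG proteins, HSPBP1 and the HSP110 relatives of HSP70) end the cycle. HSP90 acts later, on signalling proteins such as kinases and steroid receptors, and small heat shock proteins hold unfolded proteins without ATP. When unfolded proteins collect in the cytosol, the factor HSF1 switches on inducible members such as Hspa1b, Hsph1, Dnajb1 and Bag3. The endoplasmic reticulum (ER) and mitochondria have chaperones of their own, and those of the ER are under the unfolded protein response. Activated and secreting lymphocytes are known to depend on both systems.

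Values are log2 expression per probe set, so that a difference of 1 is a doubling, and each is 1 of 16 arrays. Between 17581 and 17990 of 45141 probe sets lay above a value of 5 on each array. The mean of 10 Treg marker genes was 9.91 to 10.12 in KI Tregs and 9.75 to 9.89 in WT Tregs, against 5.86 to 5.94 in KI Tconv and 6.21 to 6.39 in WT Tconv, and that of 8 T cell genes lay between 10.16 and 10.40 on all arrays. Foxp3 was 9.92, 10.05, 9.69 and 9.39 in KI Tregs and 9.74, 10.16, 9.81 and 9.72 in WT Tregs, against 3.71, 3.57, 3.71 and 3.78 in KI Tconv and 4.24, 4.96, 4.51 and 4.80 in WT Tconv. The protocol in the labels gives a sort for GFP-negative cells for every sample, so how the Tregs were gated is unclear. The titles number the arrays 4 to 9 (3 WT Treg and 3 WT Tconv arrays), 13 to 23 (3 KI Treg and 3 KI Tconv) and 24 to 27 (1 array of each group, called array 4 of its group here), without saying what the numbers stand for. Genotype and number span therefore cannot be told apart outside arrays 24 to 27, while each span holds Tregs and Tconv in equal numbers. Whether each array is its own mouse is not stated, so p-values measure only the spread between these samples, and in bulk cells a lower share of expressing cells cannot be told apart from less RNA per cell.

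Upstream sequences were set out for 7 members, all chosen from those with a motif match in the promoter window. Dnajb1, Hsp90aa1, Hspa4l, Dnajb13 and Dnajc15, which also feature below, had no match or no promoter entry and are not shown. Each line holds the 250 bases before the annotated start of transcription, 5′ to 3′ on the strand of the gene, from RefSeq on GRCm38.p6. Capitals mark a pair of heat shock repeats (GAANNTTC or TTCNNGAA) in the first 5, and the ER stress element (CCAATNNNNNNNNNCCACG) in the last pair of genes. In Hspe1 they mark several such pairs that overlap in a single stretch.
Hspa1b: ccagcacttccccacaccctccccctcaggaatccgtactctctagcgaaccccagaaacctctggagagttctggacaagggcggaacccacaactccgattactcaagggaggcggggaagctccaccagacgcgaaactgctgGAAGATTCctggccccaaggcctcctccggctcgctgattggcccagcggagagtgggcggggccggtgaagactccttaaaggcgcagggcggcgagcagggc
Hsph1: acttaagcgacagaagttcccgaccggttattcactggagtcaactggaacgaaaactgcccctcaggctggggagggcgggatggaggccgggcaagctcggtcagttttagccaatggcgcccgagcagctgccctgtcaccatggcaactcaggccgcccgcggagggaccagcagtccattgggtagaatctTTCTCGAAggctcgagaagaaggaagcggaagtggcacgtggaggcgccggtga
Dnaja1: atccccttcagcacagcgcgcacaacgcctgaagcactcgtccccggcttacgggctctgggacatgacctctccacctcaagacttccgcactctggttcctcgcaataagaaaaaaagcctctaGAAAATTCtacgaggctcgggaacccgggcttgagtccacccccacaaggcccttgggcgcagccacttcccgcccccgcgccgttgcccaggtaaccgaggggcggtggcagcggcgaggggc
Dnajb4: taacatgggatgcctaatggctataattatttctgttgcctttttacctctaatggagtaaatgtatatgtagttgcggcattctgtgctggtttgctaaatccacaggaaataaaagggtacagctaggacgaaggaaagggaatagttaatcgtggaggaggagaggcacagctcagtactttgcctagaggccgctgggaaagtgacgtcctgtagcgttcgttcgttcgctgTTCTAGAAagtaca
Hspe1: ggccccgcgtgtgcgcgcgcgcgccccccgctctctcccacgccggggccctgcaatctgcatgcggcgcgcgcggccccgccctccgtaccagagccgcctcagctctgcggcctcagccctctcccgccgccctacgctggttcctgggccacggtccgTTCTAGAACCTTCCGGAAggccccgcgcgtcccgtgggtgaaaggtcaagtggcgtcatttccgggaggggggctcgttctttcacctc
Hspa5: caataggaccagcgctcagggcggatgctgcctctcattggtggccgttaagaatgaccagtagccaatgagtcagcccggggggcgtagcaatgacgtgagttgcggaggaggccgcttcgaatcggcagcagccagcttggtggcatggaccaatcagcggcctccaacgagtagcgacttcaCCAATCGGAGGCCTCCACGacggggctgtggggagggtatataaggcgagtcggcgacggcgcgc
Dnajc3: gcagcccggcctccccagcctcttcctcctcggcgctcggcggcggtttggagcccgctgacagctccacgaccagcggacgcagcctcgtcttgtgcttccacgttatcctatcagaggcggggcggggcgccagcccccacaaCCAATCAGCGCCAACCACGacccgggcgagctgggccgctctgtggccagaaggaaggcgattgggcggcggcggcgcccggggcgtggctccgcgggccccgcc
These regions are, in the same order, chr17:34959239-34959488 on the minus strand, chr5:149636316-149636565 on the minus strand, chr4:40722218-40722467 on the plus strand, chr3:152193846-152194095 on the minus strand, chr1:55087898-55088147 on the plus strand, chr2:34771840-34772089 on the plus strand and chr14:118937682-118937931 on the plus strand. Searched on both strands of windows from 250 bases before to 50 after the start, a pair of heat shock repeats lay in 14 of the 60 members with an entry, and in 15.1% of all 32851 promoters. A run of 3 repeats (GAANNTTCNNGAA, whose matches also hold the shorter motif) lay in 3 members, Dnajb6, Hspe1 and Hsph1, and in 0.603% of promoters. In Hsph1 that run, TTCTGGAAAGTTC, begins 15 bases past the start and is not in the stretch shown. The ER stress element lay in Dnajc3, Hsp90b1 and Hspa5, and in 0.119% of promoters. Members are counted by gene, over all its annotated starts, and the shares by promoter entry, so these are unlike measures. A match describes the letters and is not evidence that a factor binds there.

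A gene was tested when its value was above 5 on at least 4 arrays, which 55 of the 74 members and 8139 genes in all passed. The other 19 included Bag2, Dnajb3, Dnajb5, Dnajb8, Dnajc22, Dnajc28, Dnajc5b, Dnajc5g, Hspa12a, Hspa12b, Hspa1l and Hspa2. The remainder were all 7 genes grouped by symbol as small heat shock proteins, Hspb1, Hspb2, Hspb3, Hspb7, Hspb8, Hspb9 and Hspb11. Of the 19 only Dnajc28, Hspb1 and Dnajb5 exceeded 5 on any array, at highest 5.17, 5.07 and 5.04. Hspb1, which encodes the stress-inducible HSP27, was 4.39, 4.65, 4.74 and 4.22 in KI Tregs and 3.97, 4.60, 5.07 and 4.39 in WT Tregs, against 3.39, 3.94, 3.52 and 3.46 in KI Tconv and 3.77, 3.58, 3.57 and 3.53 in WT Tconv. Every Treg array lay above every Tconv array of its genotype, but nearly all of these values are below the filter. Hspb1 was therefore not tested in the main fit. With no filter it was called between cell types in both genotypes, on these low values. The genes Hspa1a, Hsp90ab1 and Hspd1 and the factor gene Hsf1 are outside that set of probe sets and were not analysed here. Hspa1b is nearly identical to Hspa1a, so its probe sets may read both.

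Between genotypes, few members differed, and those that did stood higher in KI Tregs. In KI Tregs against WT Tregs, 2 of 55 members rose and none fell (3.64%), against 2.84% of all 8139 genes by the same test (limma, Benjamini-Hochberg adjusted p under 0.05), of which 1.99% rose. The members' share is near that background. The median difference was 0.01 over members and 0.04 over all genes. At an unadjusted p under 0.05 there were 6 members, against 16.5% of all genes. The groups did not overlap for 2 members, Dnajc15 and Dnajb14, against 8.12% of all genes.

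Dnajc15 encodes a J protein of the mitochondrial inner membrane that in mice restrains the respiratory chain. It was 8.99, 9.15, 8.57 and 8.82 in KI Tregs and 8.31, 8.42, 8.42 and 8.32 in WT Tregs, against 8.24, 8.04, 8.15 and 8.53 in KI Tconv and 8.50, 8.02, 8.05 and 8.13 in WT Tconv. All 4 KI Treg arrays lay above all other arrays, and the remaining groups overlapped. The KI minus WT difference in Tregs was 0.51 (SE 0.126, 1.43-fold, limma adjusted p = 0.0351), and 0.07 in Tconv (SE 0.126, adjusted p = 0.953).

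Dnajb13, a J protein gene otherwise known from sperm tails and cilia, was 7.71, 7.61, 7.06 and 7.02 in KI Tregs and 6.28, 7.06, 6.52 and 6.75 in WT Tregs. The KI arrays 3 and 4 lay beside the highest WT array, so the groups overlapped. Its difference in Tregs was 0.69 (SE 0.172, 1.62-fold, limma adjusted p = 0.0358), and 0.03 in Tconv (SE 0.172, adjusted p = 0.987). Whether these effects differ between cell types was tested by the interaction, in which the genotype difference of Tconv is taken from that of Tregs. It was 0.66 for Dnajb13 (SE 0.243, adjusted p = 0.379) and 0.44 for Dnajc15 (SE 0.178, adjusted p = 0.467), and no member passed, against 0.786% of all genes, with 5 members at an unadjusted p under 0.05. Within arrays 24 to 27, KI exceeded WT Tregs by 0.27 for Dnajb13 and 0.49 for Dnajc15, with 1 array a group. With 3 number spans as a block the differences were 0.55 (adjusted p = 0.698) and 0.66 (adjusted p = 0.222). Leaving out 1 array ended the call of Dnajb13 for WT Treg 1, 3 or 4 and KI Treg 1 or 2 (differences 0.57 to 0.72, adjusted p 0.0671 to 0.147). It ended that of Dnajc15 for any of the 4 WT Treg arrays and KI Treg 1 or 2 (0.42 to 0.53, adjusted p 0.0538 to 0.133).

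The remaining members of the genotype comparison in Tregs did not pass. Dnajb14, an ER membrane J protein gene, was 6.61, 6.37, 6.83 and 6.83 in KI Tregs and 7.04, 7.25, 6.83 and 6.93 in WT Tregs. The highest KI value met the lowest WT value to the second decimal without crossing it, with a difference of -0.35 (SE 0.127, limma adjusted p = 0.16). Dnajc27, which encodes a J protein with a GTPase-like domain, was 5.79, 6.40, 6.03 and 5.65 in KI Tregs and 5.45, 5.68, 5.33 and 5.63 in WT Tregs (0.44, SE 0.141, limma adjusted p = 0.106). Over the 10 HSF1-induced members tested the median was -0.20, from -2.37 to 0.11, with none called, against a median of 0.04 over all genes. Cell cycle genes moved with the genotype as well: the mean of 21 genes was 6.14 to 6.99 in KI Tregs and 5.45 to 6.49 in WT Tregs, and 2 of 14 tested rose. Genes of the plasma cell list, which include Irf4 and Prdm1 that effector Tregs also express, had a mean of 6.95 to 7.71 in KI Tregs and 5.95 to 7.49 in WT Tregs. Immediate early genes, which respond to stimulation and cell handling, had a mean of 8.11 to 9.07 in KI Tregs and 8.27 to 8.51 in WT Tregs, against 7.93 to 8.80 in KI Tconv and 8.04 to 8.06 in WT Tconv. Their median genotype difference was 0.31 in Tregs and 0.43 in Tconv, with none of 12 called. The part of these 3 lists in the members' differences was not tested.

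In KI Tconv against WT Tconv no member passed by limma, against 0.135% of all genes, while 6 members and 5.9% of all genes had an unadjusted p under 0.05. The groups did not overlap for 5 members, Dnajb9, Dnajc11, Dnajc27, Dnajc30 and Hspbp1, all higher in KI Tconv, against 3.74% of all genes. Dnajb9, which encodes the ER J protein ERdj4 that restrains the stress sensor IRE1, was 9.68, 9.10, 9.00 and 8.81 in KI Tconv and 8.62, 8.58, 8.42 and 8.50 in WT Tconv, and 9.06, 9.56, 8.64 and 8.54 in KI Tregs and 8.37, 8.40, 8.49 and 8.56 in WT Tregs. The KI arrays 1 to 3 of both cell types lay above every WT array, and replicate 4 was nearer to WT, within its range in Tregs. The difference was 0.62 in Tconv (SE 0.185, limma adjusted p = 0.48) and 0.49 in Tregs (SE 0.185, adjusted p = 0.178). Within arrays 24 to 27 it was 0.31 in Tconv and -0.02 in Tregs, and with 3 number spans as a block it was 0.21 and 0.08. Without KI Treg 4 the Treg difference was 0.63 and passed (adjusted p = 0.0498).

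The main ER chaperone genes did not pass between genotypes. Hspa5, which encodes BiP, the main HSP70 of the ER, was 11.25, 11.41, 11.12 and 11.06 in KI Tregs and 11.06, 10.92, 11.10 and 11.03 in WT Tregs, against 11.48, 11.13, 11.04 and 10.93 in KI Tconv and 11.04, 10.88, 11.01 and 11.03 in WT Tconv. Its highest values were KI Tconv 1 and KI Treg 2, and the groups overlapped. The genotype difference was 0.18 in Tregs (95% interval -0.02 to 0.38, limma adjusted p = 0.343) and 0.16 in Tconv (-0.04 to 0.35, adjusted p = 0.85). Hsp90b1, the ER form of HSP90 that folds integrins and Toll-like receptors, ranged from 10.58 to 10.92 over all 16 arrays, and Dnajb11, a BiP partner, from 9.14 to 9.59. No member of the ER class (10 tested) passed between genotypes in either cell type.

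Tregs and Tconv differed in 15 of the 55 tested members. J protein genes were 10 of these 15 (66.7%) and 36 of the 55 (65.5%). In WT Tregs against WT Tconv 5 members rose and 4 fell (16.4%), against 34.6% of all genes, of which 16.7% rose and 17.9% fell. In KI Tregs against KI Tconv 6 rose and 8 fell (25.5%), against 41.1% of all genes, of which 21.2% rose and 19.9% fell. The members' share was under the background in either genotype. Cell cycle genes moved with the cell type too, with 11 of 14 higher in KI Tregs (median 1.66) and 4 of 14 in WT Tregs (median 0.49). The plasma cell list had a mean of 6.95 to 7.71 in KI Tregs, against 5.71 to 6.31 in KI Tconv, and 5.95 to 7.49 in WT Tregs, against 5.90 to 6.47 in WT Tconv. The 2 CD8 T cell genes had a mean of 5.85 to 6.26 in KI Tregs and 5.18 to 5.61 in KI Tconv. In WT it was 6.11 to 6.45 in Tregs and 4.80 to 5.19 in Tconv. The dendritic cell list (2 of 6 genes above the filter) was 4.92 to 5.45 in KI Tregs and 4.56 to 4.74 in KI Tconv. In WT it was 4.84 to 5.27 and 4.55 to 4.72. The NK cell list was 4.27 to 4.69 in WT Tregs and 4.69 to 4.97 in WT Tconv. The B cell, neutrophil and erythroid lists overlapped. The part of these lists in the members' differences was not tested. Of the 15 members called in at least 1 genotype, 8 were called in both, 4 higher (Dnajb13, Dnajc1, Hspa13 and Hspa4l) and 4 lower in Tregs (Dnaja3, Dnajc3, Dnajc5 and Dnajc6). None was called in opposite directions, and 40 of 55 differences had the same sign. Groups did not overlap for 10 members in KI and 9 in WT, against 34.7% and 37.2% of all genes. The median size of a difference was 0.16 in KI and 0.11 in WT over members, against 0.20 and 0.18 over all genes.

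**Figure D1:**
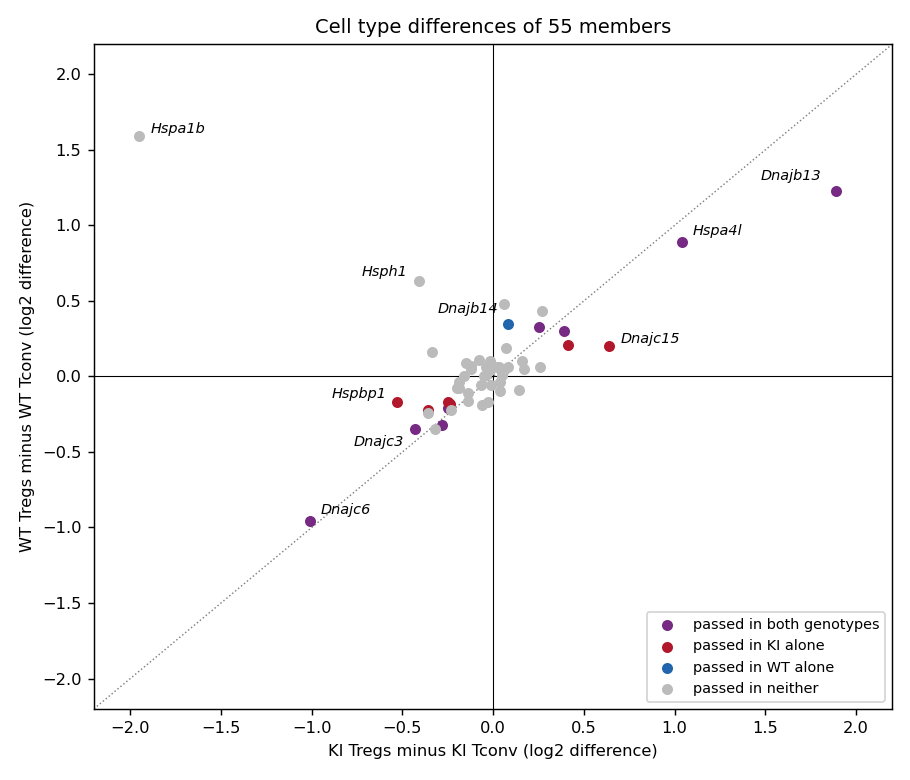
Treg minus Tconv differences (log2) of the 55 tested members, in KI mice on the x axis and in WT mice on the y axis, coloured by whether each passed at an adjusted p under 0.05. Dnajb13 (1.89 in KI and 1.23 in WT) and Hspa4l (1.04 and 0.89) lie at the upper right, Dnajc6 (-1.01 and -0.96) at the lower left, and Hspa1b, which did not pass, at -1.95 and 1.59.

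Among HSP70 relatives that passed, Hspa4l had the largest difference. It encodes an HSP110-type nucleotide exchange factor of HSP70, studied mainly in testis. Hspa4l was 8.06, 7.81, 8.64 and 8.48 in KI Tregs, against 6.86, 7.43, 7.13 and 7.41 in KI Tconv, and 8.34, 7.94, 8.24 and 8.12 in WT Tregs, against 7.08, 7.41, 7.00 and 7.59 in WT Tconv. Every Treg array lay above every Tconv array. The differences were 1.04 in KI (SE 0.175, 2.05-fold, limma adjusted p = 0.00011) and 0.89 in WT (SE 0.175, 1.85-fold, adjusted p = 0.000608), with an interaction of 0.15 (95% interval -0.37 to 0.67). Read from its probe set with the largest variance, the difference was 0.77 in KI, which did not pass (limma adjusted p = 0.0536), and 1.20 in WT.

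Hspa13, an ER-associated HSP70 that lacks the substrate-binding domain, was 7.99, 7.90, 8.15 and 8.18 in KI Tregs, against 7.62, 7.56, 7.50 and 7.98 in KI Tconv, and 8.10, 7.82, 8.26 and 8.11 in WT Tregs, against 7.69, 7.73, 7.79 and 7.87 in WT Tconv. In each genotype 1 Treg array lay within the Tconv range. It rose by 0.39 in KI (SE 0.109, limma adjusted p = 0.0085) and 0.30 in WT (SE 0.109, adjusted p = 0.0382). The call in WT ended without any 1 of WT Treg 1, 3 or 4 or WT Tconv 1, 2 or 3 (0.24 to 0.31, adjusted p 0.064 to 0.129). Hspa14, which acts at the ribosome with the J protein of Dnajc2, fell in KI by 0.24 (SE 0.0794, limma adjusted p = 0.0239), with 9.43 to 9.74 in KI Tregs, against 9.75 to 9.93 in KI Tconv. In WT its difference was -0.18. Hspa9, the mitochondrial HSP70 mortalin, fell in KI by 0.25 (SE 0.0899, limma adjusted p = 0.0325), with 9.02, 9.00, 8.95 and 9.21 in KI Tregs, against 9.39, 9.32, 9.08 and 9.40 in KI Tconv. KI Treg 4 lay within the Tconv range. In WT the difference was -0.17 (adjusted p = 0.169). With the mean of its probe sets, or with the probe set of largest variance, Hspa9 was called in WT too. The call of Hspa14 ended without KI Treg 2 or KI Tconv 1, 3 or 4 (-0.23 to -0.17, adjusted p 0.0506 to 0.0911), and that of Hspa9 without KI Treg 1, 2 or 3 or KI Tconv 1, 2 or 4 (-0.24 to -0.22, adjusted p 0.0691 to 0.0852).

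The constitutive cytosolic HSP70 gene Hspa8 ranged from 12.18 to 12.94 over the 16 arrays, with differences of 0.07 in KI (95% interval -0.27 to 0.40) and 0.19 in WT (-0.14 to 0.52). Hspa4, another HSP110-type gene, ranged from 10.29 to 10.64. Hspbp1, which encodes an exchange factor that also restrains the chaperone-bound ubiquitin ligase CHIP, was 5.87, 5.85, 5.84 and 5.62 in KI Tregs, against 6.35, 6.27, 6.31 and 6.36 in KI Tconv, and 6.09, 5.94, 5.93 and 5.82 in WT Tregs, against 6.10, 6.15, 6.03 and 6.18 in WT Tconv. The KI groups were far apart, while WT Treg 1 lay within the range of WT Tconv. It fell by 0.53 in KI Tregs against KI Tconv (SE 0.0902, 1.44-fold, limma adjusted p = 0.000123), and the difference in WT was -0.17. The interaction was -0.36 (adjusted p = 0.356), so a difference between genotypes was not shown.

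Of the 13 DNAJA and DNAJB genes tested, Dnajb13 had the largest cell type difference among members that passed. Its Tconv values were 5.35, 5.41, 5.53 and 5.54 in KI and 5.71, 5.35, 5.27 and 5.37 in WT, all under the Treg values given above. It rose in Tregs by 1.89 in KI (SE 0.172, 3.71-fold, limma adjusted p = 5.68e-08) and 1.23 in WT (SE 0.172, 2.35-fold, adjusted p = 1.64e-05). Dnajb14 rose in WT Tregs by 0.35 (SE 0.127, limma adjusted p = 0.0404), against 6.77, 6.79, 6.58 and 6.51 in WT Tconv, and the difference in KI was 0.08 (SE 0.127). Its call ended without WT Treg 1 or 2 or WT Tconv 3 or 4 (0.27 to 0.34, adjusted p 0.0799 to 0.137). Dnaja3, which encodes the mitochondrial J protein Tid1, was 7.47, 7.35, 7.72 and 7.70 in KI Tregs, against 7.65, 7.82, 7.81 and 8.09 in KI Tconv, and 7.46, 7.33, 7.64 and 7.75 in WT Tregs, against 7.83, 7.93, 7.82 and 7.90 in WT Tconv. The WT groups were apart and the KI groups overlapped. It fell by 0.28 in KI (SE 0.108, limma adjusted p = 0.0453) and by 0.32 in WT (SE 0.108, adjusted p = 0.0284). Without 1 array its call in KI ended for 11 of the 16 arrays (-0.29 to -0.20, adjusted p 0.0515 to 0.149), and in WT without WT Treg 1 or 2 or WT Tconv 2 or 4 (-0.31 to -0.25, adjusted p 0.0572 to 0.104).

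**Figure D2:**
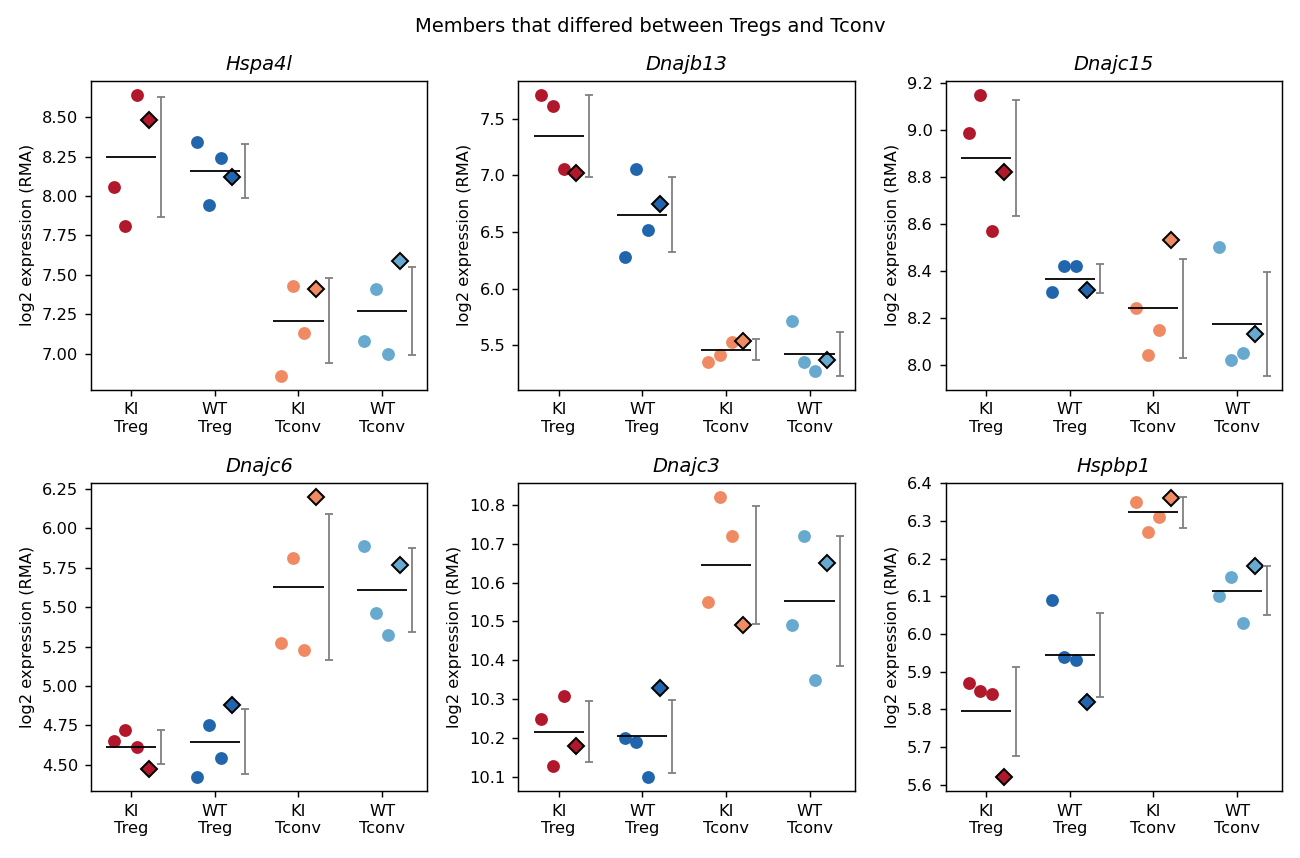
Log2 expression of 6 members on each array, by group. Circles and diamonds are arrays (diamonds number 24 to 27), black lines are group means and grey bars are SD (n = 4). The y axis of each panel has its own range and does not start at 0. Tregs lie above Tconv for Hspa4l and Dnajb13 and below for Dnajc6 and Dnajc3, and KI Tregs lie highest for Dnajc15. Among the groups of the Hspbp1 panel, KI Tregs and KI Tconv lie farthest apart.

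Of the 23 DNAJC genes tested, 3 rose and 4 fell in KI Tregs and 1 rose and 3 fell in WT Tregs. The share called over all genes was larger, 41.1% in KI and 34.6% in WT. Dnajc6, which encodes auxilin, the J protein that uncoats clathrin vesicles, was 4.65, 4.72, 4.61 and 4.47 in KI Tregs, against 5.27, 5.81, 5.23 and 6.20 in KI Tconv, and 4.42, 4.75, 4.54 and 4.88 in WT Tregs, against 5.89, 5.46, 5.32 and 5.77 in WT Tconv. All Treg arrays were under 5 and all Tconv arrays above it, so Dnajc6 entered the test through Tconv alone and the call is no independent support. The fitted differences were -1.01 in KI (SE 0.193, limma adjusted p = 0.000365) and -0.96 in WT (SE 0.193, adjusted p = 0.00072). With a filter at 6, or with the mean of its probe sets, Dnajc6 fell under the filter and was not tested. Its other probe sets, both under the filter, gave 0.08 and -0.02 in KI and -0.18 and 0.04 in WT.

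Dnajc3, whose ER protein P58IPK binds unfolded substrates for BiP and restrains the kinase PERK, was 10.25, 10.13, 10.31 and 10.18 in KI Tregs, against 10.55, 10.82, 10.72 and 10.49 in KI Tconv, and 10.20, 10.19, 10.10 and 10.33 in WT Tregs, against 10.49, 10.72, 10.35 and 10.65 in WT Tconv. Every Treg array lay under every Tconv array. It fell by 0.43 in KI (SE 0.0847, 1.34-fold, limma adjusted p = 0.000545) and by 0.35 in WT (SE 0.0847, 1.27-fold, adjusted p = 0.00338). Its other 4 probe sets gave larger differences, from -0.74 to -0.55 in KI and from -0.70 to -0.49 in WT. Hspa5 and Hsp90b1, the other members with the ER stress element in their promoter window, had differences of 0.06 and -0.04 in KI and 0.04 and 0.01 in WT, none of which passed. Dnajc1, which encodes an ER membrane J protein that contacts ribosomes, was 9.21, 9.19, 9.29 and 9.13 in KI Tregs, against 8.83, 9.05, 9.09 and 8.86 in KI Tconv, and 9.16, 9.28, 9.18 and 9.26 in WT Tregs, against 8.70, 8.86, 8.90 and 9.10 in WT Tconv. Tregs lay above Tconv in each genotype, by 0.25 in KI (SE 0.0811, limma adjusted p = 0.0211) and 0.33 in WT (SE 0.0811, adjusted p = 0.00365). Its call in KI ended without KI Treg 3 or KI Tconv 1 or 4 (0.21 to 0.22, adjusted p 0.0584 to 0.0685). Its other probe sets above the filter gave 0.20 and 0.24 in KI and 0.04 and 0.48 in WT. The size of its rise in WT thus depended on the probe set. The ER class of 10 members thus had 2 higher and 1 lower in KI Tregs and 3 higher and 1 lower in WT Tregs. Of all genes, 41.1% were called in KI and 34.6% in WT.

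Dnajc5, which encodes the cysteine string protein of secretory vesicles, was 9.43 to 9.54 in KI Tregs, against 9.61 to 9.95 in KI Tconv, and 9.47 to 9.64 in WT Tregs, against 9.67 to 9.85 in WT Tconv. It fell by 0.25 in KI (SE 0.0703, limma adjusted p = 0.00936) and 0.21 in WT (SE 0.0703, adjusted p = 0.0305), and the call in WT ended without WT Treg 1, 2 or 3 or WT Tconv 1 or 2 (-0.21 to -0.17, adjusted p 0.0509 to 0.104). With the mean of its probe sets the difference of Dnajc5 in WT was -0.12 (limma adjusted p = 0.271), and with the probe set of largest variance -0.07 (adjusted p = 0.867). That probe set gave -0.50 in KI (adjusted p = 0.113). In KI alone, Dnajc15 rose by 0.64 (SE 0.126, 1.56-fold, limma adjusted p = 0.000506) with no overlap, and its difference in WT was 0.20 (SE 0.126). The KI Treg arrays are the same as in its genotype comparison, so the results share samples. Dnajc12, a partner of aromatic amino acid hydroxylases, was 6.64, 6.40, 6.33 and 6.42 in KI Tregs, against 5.83, 5.94, 6.01 and 6.36 in KI Tconv, with KI Treg 3 within the Tconv range, and rose by 0.41 (SE 0.123, limma adjusted p = 0.012), with 0.21 in WT. Dnajc11, which encodes a protein of mitochondrial cristae, was 6.56, 6.73, 6.69 and 6.00 in KI Tregs, against 6.87, 6.96, 6.79 and 6.80 in KI Tconv. No array overlapped, and it fell by 0.36 (SE 0.13, limma adjusted p = 0.0325), with -0.22 in WT. That call ended without KI Treg 4 or KI Tconv 1 or 2 (-0.36 to -0.20, adjusted p 0.0589 to 0.101).

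The mitochondrial class of 8 tested members had 1 higher (Dnajc15) and 3 lower (Dnaja3, Dnajc11 and Hspa9) in KI Tregs and 0 higher and 1 lower (Dnaja3) in WT Tregs. The 5 tested BAG genes, whose proteins release substrates from HSP70, had none called between cell types. For both classes the share to compare is that of all genes, 41.1% called in KI and 34.6% in WT. No class was tested as a set. Bag1 ranged from 9.21 to 9.64 on the 16 arrays and Bag6, which guides membrane proteins to the ER or to degradation, from 6.67 to 7.76. Bag2 was 4.15 at most. For called members, all 32 further values above the filter had the sign of the probe set used, but the choice of probe set ended calls. A probe set is counted once for each comparison here, so many are counted in both genotypes. With the probe set of largest variance, Dnajc1, Dnajc5, Hspa13, Hspa14 and Hspa4l were not called in KI and Dnaja3 and Dnajc5 not in WT. Hspa14 fell under the filter there and was not tested. That setting added calls of Dnajb6 in both genotypes and of Hspa9 in WT.

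Several members varied widely within groups, most of all Hspa1b. Hspa1b, the strongly heat-inducible HSP70, was 6.40, 5.17, 8.94 and 7.33 in KI Tregs and 8.18, 8.36, 11.42 and 9.37 in WT Tregs, against 5.89, 10.65, 11.35 and 7.73 in KI Tconv and 6.83, 7.66, 7.03 and 9.45 in WT Tconv. The lowest array was KI Treg 2 and the highest WT Treg 3, 76.1-fold apart, and all groups overlapped. Its SD within groups was 1.78, the fourth largest of 8139 genes, against a median of 0.143. Its 3 probe sets spanned 5.17 to 11.42, 4.59 to 10.58 and 4.23 to 10.44.

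With that spread no difference in Hspa1b passed. KI Tregs against WT Tregs gave -2.37 (95% interval -4.57 to -0.18, limma adjusted p = 0.258) and KI Tconv against WT Tconv 1.16 (-1.03 to 3.36, adjusted p = 0.884). The interaction was -3.54 (-6.64 to -0.43, adjusted p = 0.496). These intervals are wide. With 3 number spans as a block the difference was -3.65 in Tregs and -0.11 in Tconv, and within arrays 24 to 27 it was -2.04 in Tregs and -1.72 in Tconv, so that its sign in Tconv turned.

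**Figure D3:**
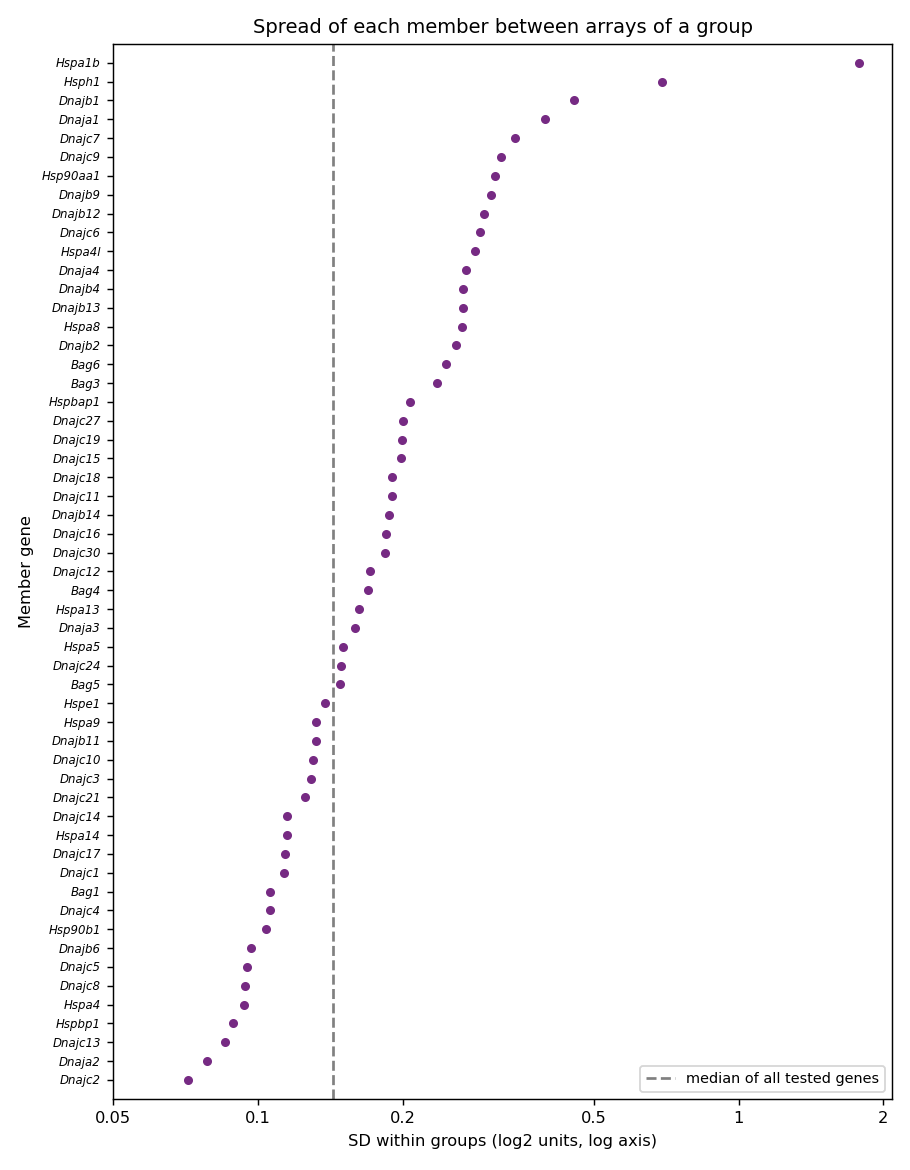
SD of each of the 55 tested members within groups (pooled over the 4 groups, log2 units, log axis), in order. The dashed line is the median of all 8139 tested genes, 0.143. Hspa1b lies at 1.78, Hsph1 at 0.694, Dnajb1 at 0.455 and Dnaja1 at 0.396, and 34 of 55 members lie to the right of the line.

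Hsph1, which encodes the inducible exchange factor HSP105, was 8.68, 8.89, 10.25 and 10.09 in KI Tregs and 9.99, 9.44, 10.41 and 10.57 in WT Tregs, against 8.91, 10.26, 9.97 and 10.42 in KI Tconv and 8.91, 9.26, 9.16 and 10.56 in WT Tconv. The lowest array of KI Tregs, KI Tconv and WT Tconv lay under every WT Treg array, and all groups overlapped. Its SD ranked 72 of 8139 genes, and those of Dnajb1 and Dnaja1, J protein genes that serve inducible HSP70, ranked 161 and 220. In all, 15 of 55 members were in the top 10% of SD, and the median SD of members was 0.171. Hsp90aa1, the inducible cytosolic HSP90, was 10.91, 10.49, 11.39 and 11.47 in KI Tregs and 11.26, 11.20, 11.43 and 11.65 in WT Tregs, against 10.62, 11.25, 11.14 and 11.03 in KI Tconv and 10.85, 10.83, 10.67 and 11.26 in WT Tconv. Its lowest array was KI Treg 2, and its Treg minus Tconv difference in WT was 0.48 (limma adjusted p = 0.0525). With 2 or 3 number spans as a block it passed in WT, as did Dnaja4 and Hspbap1, which made 12 members in place of 9. In KI the blocks gave 17 and 16 members in place of 14. Hspe1, the mitochondrial HSP10, was 9.59, 9.62, 9.80 and 9.67 in KI Tregs and 9.58, 9.71, 9.67 and 9.71 in WT Tregs, against 9.73, 9.76, 9.72 and 9.96 in KI Tconv and 9.80, 9.33, 9.49 and 9.77 in WT Tconv. Its lowest and highest arrays were WT Tconv 2 and KI Tconv 4.

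Deviations from the group means showed which members moved with Hspa1b from array to array. These correlations describe 10 relations over 16 arrays, computed after the group means were removed. The arrays share their RNA, so members on 1 array are not independent, and no test is given. Hsp90aa1 followed Hspa1b with Pearson's r of 0.76 and Spearman's rho of 0.75, and Hsph1 with r of 0.71 and rho of 0.60. Without the 2 arrays farthest from the median r was 0.74 and 0.70. Within number spans r was 0.74 (arrays 4 to 9) and 0.91 (13 to 23) for Hsp90aa1 and 0.80 and 0.89 for Hsph1, and arrays 24 to 27 hold too few for a value. Dnajb1 had r of 0.26 over all arrays, against 0.79 and 0.91 within those spans, and Dnaja1 had 0.39, against 0.67 and 0.72. Hspa4l had r of 0.63 and rho of 0.56, with 0.68 without the 2 farthest arrays and 0.32 and 0.82 within the spans. Hspa8 had r of 0.45, with 0.24 and 0.35 within the spans, and Dnajb4 0.32, with 0.36 and 0.95. For Bag3 r was 0.11 and for Hspe1 0.14. The mean of immediate early genes had r of 0.15, with 0.94 in arrays 4 to 9 and 0.06 in arrays 13 to 23.

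**Figure D4:**
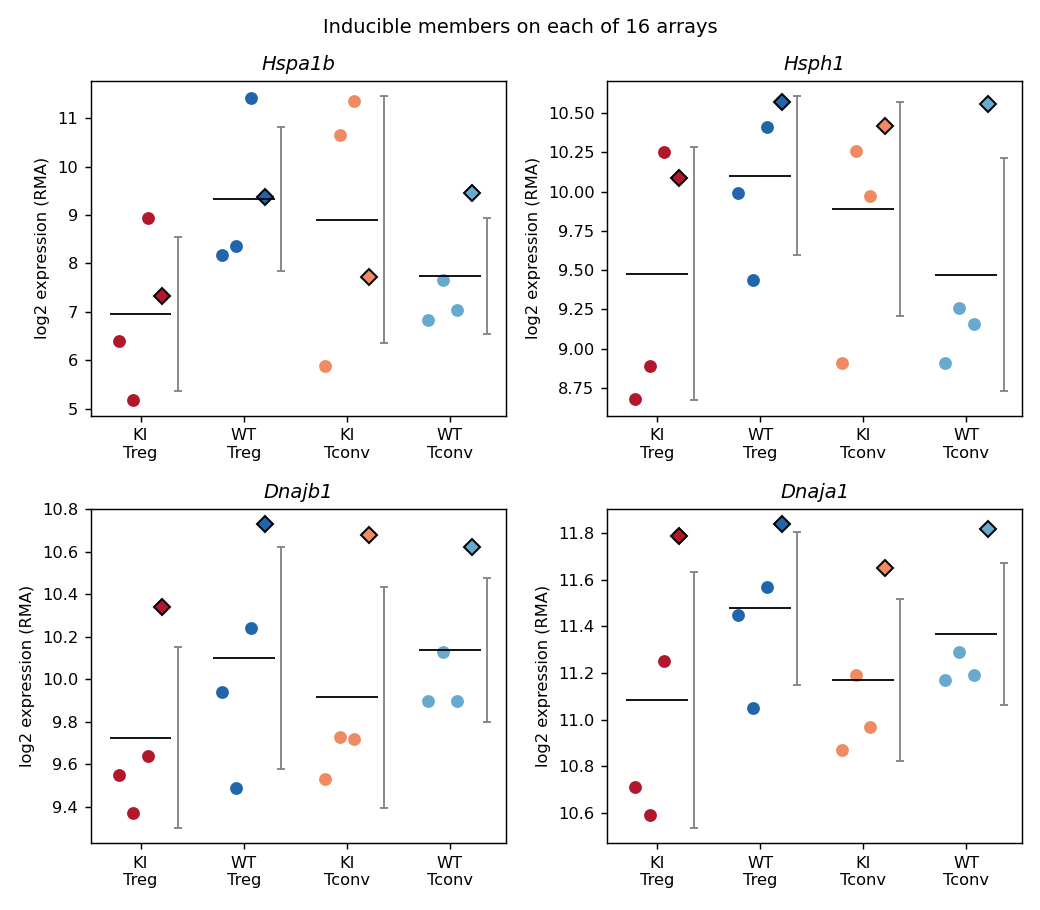
Log2 expression of 4 inducible members on each of 16 arrays, by group. Circles and diamonds are arrays (diamonds number 24 to 27), black lines are group means and grey bars are SD (n = 4). Each y axis has its own range and does not start at 0. The diamond is the highest array of every group for Dnajb1 and Dnaja1, and of 3 groups for Hsph1, while for Hspa1b it is highest in WT Tconv alone.

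Part of the spread followed the array numbers. Arrays 24 to 27, the 1 array of each group with those numbers, were set against the other 3 arrays of their group, a contrast added after the values were seen. In it 5 members rose and 0 fell (9.09%), against 6.63% of all genes, of which 4.75% rose and 1.88% fell. That share of members is near the background. The array of 24 to 27 was the highest of its group in all 4 groups for 7 members (12.7%) and for 4.51% of all genes. The contrast does not say what the numbers stand for.

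The 5 members all belong to the HSF1-induced class. Dnajb1 was 10.34 (KI Treg), 10.73 (WT Treg), 10.68 (KI Tconv), 10.62 (WT Tconv) on arrays 24 to 27, and 9.37 to 9.64 (KI Treg), 9.49 to 10.24 (WT Treg), 9.53 to 9.73 (KI Tconv), 9.90 to 10.13 (WT Tconv) on the other arrays. It was 0.83 higher (SE 0.0975, 1.77-fold, limma adjusted p = 0.000206) and highest in all 4 groups. Dnaja1 was 11.79 (KI Treg), 11.84 (WT Treg), 11.65 (KI Tconv), 11.82 (WT Tconv) on arrays 24 to 27, and 10.59 to 11.25 (KI Treg), 11.05 to 11.57 (WT Treg), 10.87 to 11.19 (KI Tconv), 11.17 to 11.29 (WT Tconv) on the others, 0.67 higher (1.59-fold, limma adjusted p = 0.00215). Both genes thus had their 4 highest values on the 4 arrays of that span.

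Dnajb4, another cytosolic J protein gene, was 8.21 (KI Treg), 8.30 (WT Treg), 8.21 (KI Tconv), 8.06 (WT Tconv) on arrays 24 to 27, and 7.75 to 7.89 (KI Treg), 7.41 to 7.76 (WT Treg), 7.71 to 7.97 (KI Tconv), 7.50 to 7.75 (WT Tconv) on the others (0.47, limma adjusted p = 0.00218). Bag3, whose protein links HSP70 to small heat shock proteins and to autophagy, was 6.64 (KI Treg), 6.56 (WT Treg), 6.77 (KI Tconv), 6.75 (WT Tconv) on arrays 24 to 27, and 6.20 to 6.51 (KI Treg), 6.20 to 6.35 (WT Treg), 6.10 to 6.32 (KI Tconv), 6.10 to 6.32 (WT Tconv) on the others (0.41, limma adjusted p = 0.00761). Each was highest in all 4 groups. Hsph1 was 0.90 higher (SE 0.257, limma adjusted p = 0.044) and highest in 3 groups. Its call ended without any 1 of 12 arrays, KI Treg 3, WT Treg 3 and KI Tconv 1 and 2 being the exceptions (0.71 to 0.99, adjusted p 0.0503 to 0.158), and that of Bag3 ended without KI Tconv 4 (0.36, adjusted p = 0.0652).

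Of the 10 tested HSF1-induced members 5 rose, against 4.75% of all genes, and the medians were 0.38 and 0.01. The contrast was added after the values were seen, and the list was chosen with earlier results known. This count is therefore no independent support. Hspa1b itself differed by 0.31 with a 95% interval of -1.49 to 2.11, and Hsp90aa1 by 0.35 (adjusted p = 0.105). Genes of heat shock factors and other cytosolic cochaperones had a median of 0.04. Of the 20 tested, against 4.75% that rose over all genes, 4 rose and 0 fell. They included the HSP90 cochaperone genes Chordc1 (0.45, limma adjusted p = 0.0285), Ahsa1 (0.34, adjusted p = 0.013) and Ptges3 (0.30, adjusted p = 0.0138). Stip1, the adaptor between HSP70 and HSP90, had 0.35 (adjusted p = 0.201). ER folding genes had 0 higher and 2 lower of 27, against 1.88% of all genes that fell.

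Of all genes, 1.88% fell on arrays 24 to 27. Immediate early genes had 0 higher and 4 lower of 12 on these arrays and a median of -0.41, which lay mostly with the KI arrays. Their mean deviated from its group's by -0.70 in KI Treg 4 and -0.73 in KI Tconv 4, against -0.18 in WT Treg 4 and -0.01 in WT Tconv 4. Fos was 11.64, 11.58, 11.47 and 9.27 in KI Tregs and 10.07, 10.17, 10.89 and 9.50 in WT Tregs, against 10.90, 11.39, 11.74 and 9.04 in KI Tconv and 10.19, 9.74, 9.59 and 9.77 in WT Tconv. In KI, arrays 13 to 23 were all far above the array of 24 to 27, in Tregs and in Tconv. Neutrophil markers did not follow the span alone: S100a8 was 7.63, 9.47, 5.88 and 8.79 in KI Tregs and 3.58, 6.02, 8.24 and 10.35 in WT Tregs, against 8.59, 4.40, 4.42 and 8.14 in KI Tconv and 8.87, 5.77, 5.28 and 9.23 in WT Tconv, high on all 4 arrays 24 to 27 but also on KI Treg 2, WT Treg 3, KI Tconv 1 and WT Tconv 1. The neutrophil list (5 of 8 genes above the filter) had means of 4.31 to 6.66 in KI Tregs and 3.36 to 6.27 in WT Tregs, against 3.66 to 5.79 in KI Tconv and 4.01 to 5.79 in WT Tconv. The monocyte and macrophage list (4 of 9 genes above the filter) had means of 4.96, 5.80, 3.76 and 5.33 in KI Tregs. In WT Tregs these were 4.08, 4.78, 4.55 and 5.99. In Tconv they were 4.60, 3.99, 4.14 and 4.79 in KI and 4.73, 4.17, 4.12 and 4.84 in WT. The array of 24 to 27 was highest in WT Tregs, KI Tconv and WT Tconv and second highest in KI Tregs. The part of either list in the members' values was not tested.

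**Figure D5:**
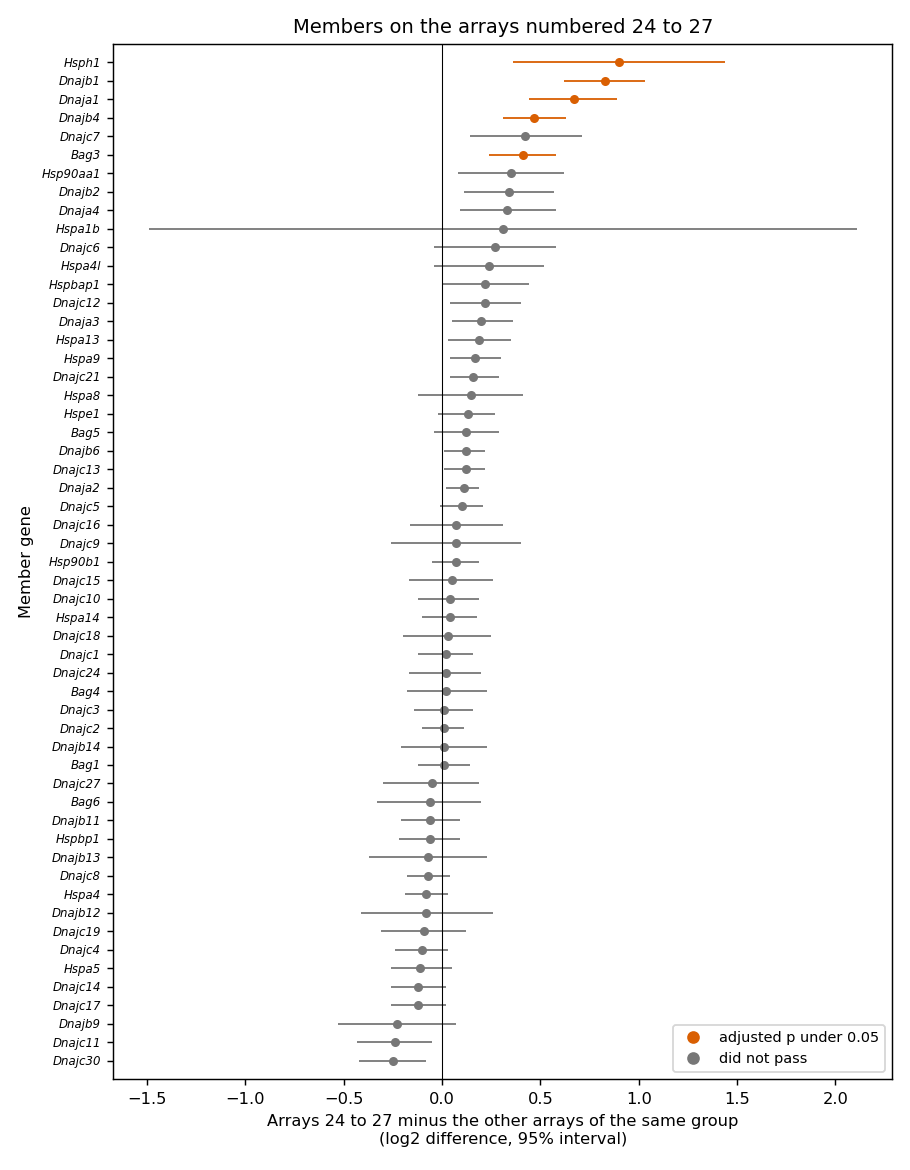
Difference (log2) of each of the 55 tested members between arrays 24 to 27 and the other arrays of the same group, with the 95% interval, in order of size. Dnajb1 (0.83), Dnaja1 (0.67), Dnajb4 (0.47), Bag3 (0.41) and Hsph1 (0.90) passed at an adjusted p under 0.05, and no member passed below 0.

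Other genes of protein folding gave a frame for these values. Of 27 tested genes of ER folding and the unfolded protein response, 6 rose and 5 fell in KI Tregs against KI Tconv. In WT Tregs against WT Tconv, 4 rose and 4 fell. Over all genes 41.1% were called in KI and 34.6% in WT. With both directions counted, none of the 4 lists given here had a larger share. Xbp1, the transcription factor that IRE1 activates, rose by 0.69 in KI (limma adjusted p = 2.23e-06) and 0.67 in WT (adjusted p = 3.81e-06), and Atf6, a second ER stress factor, by 0.93 (adjusted p = 0.000115) and 0.77 (adjusted p = 0.000917). Trib3, a target of the PERK arm, fell by 0.75 in KI (limma adjusted p = 0.000384) and 0.86 in WT (adjusted p = 0.000124). Eif2ak3, which encodes PERK, fell by 0.51 in WT (limma adjusted p = 0.00018), and Hyou1, an ER relative of HSP110, by 0.36 in KI (adjusted p = 0.000521).

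In the cytosol, 2 of 20 further cochaperone genes rose and 3 fell in KI Tregs, and 2 rose and 2 fell in WT Tregs. St13, which encodes the HSP70-interacting protein Hip, rose by 0.48 in WT (limma adjusted p = 0.000706), and Stub1, the gene of the ubiquitin ligase CHIP, fell by 0.27 in KI (adjusted p = 0.0221). The ring-shaped chaperonin CCT and its partner prefoldin had 1 higher and 2 lower of 13 in KI and 0 higher and 3 lower in WT. Their subunit gene Cct6a fell by 0.39 in KI (limma adjusted p = 0.000541) and 0.32 in WT (adjusted p = 0.00314). Mitochondrial folding and protease genes had 3 of 10 lower in each genotype, among them Tomm20, an import receptor gene (-0.26 in KI and -0.28 in WT), and Spg7, a protease gene (-0.39 and -0.51). None of these 4 lists had a gene called between KI and WT in either cell type.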

How the data were processed

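The authors deposited log2 values of RMA-normalised probe set signals from 16 arrays, made with RMA and Partek 6.5 per the submitters' processing notes; further steps are not given in the sources used here. The members and lists were chosen with earlier results of these data known. Of 45141 probe sets, 28898 had 1 gene, and each of 17097 genes was read from its probe set with the highest mean. Genes above a log2 value of 5 on at least 4 arrays (8139) were fitted with limma 3.58.1 (R 4.3.3), with 1 mean per group over all 16 arrays and a variance trend, and p-values were Benjamini-Hochberg adjusted over 8139 genes at 0.05. RMA draws all arrays to 1 distribution, so a shift shared by most genes would not show. The number of arrays limits precision. Named members were those that passed, with array values for the 6 largest rises and falls in each comparison and for a fixed set of well-known chaperone genes; further lists gave up to 4 genes of lowest p per comparison. Members named for groups that did not overlap, Hspa4, Bag6, Dnajb4, Dnajc27, Fos, S100a8 and the cochaperone genes named for arrays 24 to 27 were chosen after their values were seen, as was the contrast of arrays 24 to 27. Alternatives were other filters, probe set choices, variance models, centring, number spans as a block, and leaving out arrays. Correlations used SciPy 1.17.1 (Python 3.11.15). The fit was tested on simulated data.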

Additional observations from a re-analysis of the deposited data

Results flagged for a closer look

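In 116 groups of 4 arrays, 3 had an array whose gap to its nearest neighbour took an outsized share of the group's range (past Dixon's critical value), where chance gives about 1 in 20 groups. Hspbp1 was 5.62 in KI Treg 4, below the nearest array at 5.84, with a gap of 0.87 of the range. Hspe1 was 9.96 in KI Tconv 4, above the nearest at 9.76 (0.851 of the range). Hsp90b1 was 10.90 in WT Tconv 4, above the nearest at 10.71 (0.849 of the range). All 3 lie on arrays 24 to 27.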

How the results depend on the processing

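Among values of named members under the alternatives tried, 754 kept direction and side of the threshold, 90 were no longer past it, 1 newly passed, 16 values without a test moved by more than the replicate spread and 1 fitted value reversed, Hspa1b in KI Tconv against WT Tconv (-0.11 with 3 number spans as a block, against 1.16 without). Within arrays 24 to 27 alone, with 1 array a group, that value was -1.72, and Dnajb9 in KI Tregs against WT Tregs was -0.02, against 0.49. In KI Tregs against WT Tregs the count of 2 members was 1 without the variance trend (without Dnajc15), 1 with only the groups compared (without Dnajb13) and 0 with 3 spans as a block. Leaving out 1 array in turn gave 0 to 5 members there, the most without KI Treg 4, where Dnajb9, Dnajc11 and Dnajc27 were added. It gave 5 to 11 for WT Tregs against WT Tconv (9 with all arrays), the fewest without WT Treg 1, 10 to 15 for KI Tregs against KI Tconv (14), 0 to 0 for KI Tconv against WT Tconv and for the interaction, and 3 to 6 for arrays 24 to 27 (5), the fewest without KI Tconv 4. Between cell types, other settings gave 10 to 17 members in KI and 8 to 12 in WT. With no filter Dnaja3 and Dnajc11 in KI and Dnajb14, Dnajc5 and Hspa13 in WT were lost. That setting added Hspa2 and Hspb1 in KI and Dnajb5, Hspa2 and Hspb1 in WT, all under the filter of the main fit. With only the groups compared Dnaja3, Dnajc11 and Hspa9 were lost in KI, and Dnaja4, Hsp90aa1 and Hspbap1 were added in WT. With the mean of all probe sets Dnajc11, Dnajc6 and Hspa14 in KI and Dnajc5 and Dnajc6 in WT were lost, and Hspa9 was added in WT. Of those lost, Dnajc11 and Dnajc6 fell under the filter and were not tested. The cause of these changes was not tested, beyond the fewer arrays. The interaction with only the groups compared was not run, since it uses all 4 groups. No paired analysis was possible because the labels give the groups no shared replicate numbers; number spans were used as a block instead.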
